A study of Homo sapiens with 2 samples.

Results

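The genes described here are 9 members of a pair of gene families that act together, the SIX-family homeobox factors SIX2, SIX3, SIX4, SIX5 and SIX6 and the EYA coactivators EYA1, EYA2, EYA3 and EYA4. They were picked by symbol from the 24462 gene symbols counted in the series, with no threshold on their values, and each symbol stood on 1 row. RNA sequencing was done on neural precursor cells (NPC), which came from H9 human embryonic stem cells grown on MS5 feeders, and on undifferentiated H9 cells (hESC). H9 is a widely used pluripotent cell line, and the MS5 feeders are stromal cells of mouse origin. With 1 library of each kind no test between them could be made, and nothing in the labels says how many cultures went into a library.

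SIX-family proteins bind DNA through a homeodomain and a neighbouring SIX-type domain, the second of which also binds partner proteins. EYA proteins do not bind DNA themselves. They are carried to genes by SIX-family proteins, have a tyrosine phosphatase domain of their own, and work with DACH proteins in a network first described in the fruit fly eye (sine oculis, eyes absent and dachshund). In vertebrates, SIX3 and SIX6 belong to the anterior neural plate and the eye field, while the other members are better known from muscle, kidney, ear, lens and cranial placodes.

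The NPC library held 24065750 counted reads and the hESC library 19686728. Levels are given as reads and as CPM, the count divided by the library size in units of 1000000 reads after TMM scaling (trimmed mean of M values). A gene was taken as measured at 5 CPM or more in either library, which is 136.0 reads in NPC and 86.9 reads in hESC. It was called higher or lower in NPC when its whole 95% counting interval lay at 2-fold or beyond. The intervals cover counting error only: without molecular identifiers reads do not stand for independent molecules, and variation between cultures is not included. The labels were checked against marker genes. The pluripotency factor gene POU5F1 had 18 reads in NPC and 21886 in hESC, NANOG 70 in NPC and 3542 in hESC, the neural factor gene PAX6 2269 in NPC and 18 in hESC, and SOX1 1376 in NPC and 8 in hESC. SOX2, active in both cell types, had 7698 reads in NPC and 3700 in hESC, and the progenitor filament gene NES had 9949 in NPC and 6176 in hESC, and both were called neither. In bulk RNA of this kind, fewer cells of a type and less RNA per cell cannot be told apart.

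Of the 9 genes, 7 were measured. SIX3, SIX6, EYA1 and EYA4 were called higher in NPC, SIX4 was called lower, and SIX5 and EYA3 were called neither. Among all 13535 measured genes, 19.6% were called higher and 19.8% lower. The 4 genes called higher reached 5 CPM in NPC alone and so could not have been called lower, and nothing is read from their count. SIX2 and EYA2 stayed below 5 CPM in both libraries. The gene with the most reads differed between the libraries among the 5 SIX-family genes and among the 4 EYA genes. SIX3 and EYA4 led in NPC, and SIX4 and EYA3 in hESC.

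**Figure D1:**
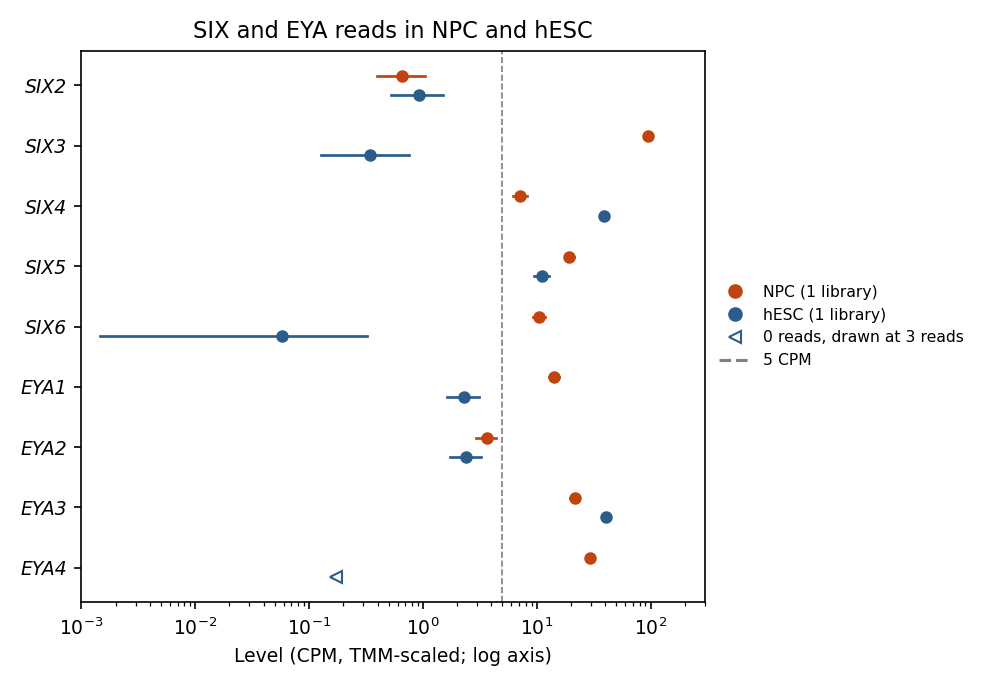
Level of each SIX-family and EYA gene in the NPC library (upper point of each pair) and the hESC library (lower point), in CPM on a log axis, with 95% Poisson counting intervals where they are wider than the point. SIX3 and SIX6 lay near the floor in hESC, EYA4 had 0 hESC reads and is drawn at the level of 3 reads, and SIX4 and EYA3 were the genes with the most CPM in hESC.

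SIX3 is required for the rostral forebrain and eyes in mouse embryos and represses Wnt signalling there. It had 2582 reads (94.9 CPM) in NPC and 6 reads (0.345 CPM) in hESC. The NPC level was 253.9-fold the hESC level (95% counting interval 126 to 750.0), the wide upper bound coming from the 6 hESC reads. None of the other 8 genes reached as many reads in either library. SIX3-AS1, the antisense RNA gene beside SIX3, had 90 reads in NPC and 0 in hESC. At 3.31 CPM in NPC it was below the filter. That level was 19.2-fold a floor of 3 hESC reads, and the lower bound of its counting interval was 15.3-fold. The counting strand is not known, which matters for reads from sequence that lies in transcripts of both genes. In GENCODE 29 the transcripts of SIX3 shared no stretch of 50 bases with those of any other gene on either strand, SIX3-AS1 included. The annotation used for the counts is not known. LINC01121, a further noncoding RNA gene near SIX3, had 0 reads in NPC and 0 in hESC.

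SIX6, the closest relative of SIX3, acts in retina, hypothalamus and pituitary. It had 286 reads (10.5 CPM) in NPC and 1 read (0.0575 CPM) in hESC. Its ratio was 122-fold, with an interval of 32.5 to 7243 that the single hESC read leaves very wide. The interval of SIX3 lay within that of SIX6, so the ratios of the pair could not be ranked. Their levels could: per kb of the longest annotated transcript, SIX3 stood at 37.6 CPM per kb in NPC and SIX6 at 3.77, a difference of 9.97-fold within that library. In hESC both were at or near the floor.

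SIX2, which keeps nephron progenitors undifferentiated in the kidney, lies next to SIX3 in the genome but did not share its pattern. It had 18 reads (0.662 CPM) in NPC and 16 reads (0.921 CPM) in hESC. The log2 ratio was −0.48 with an interval of −1.53 to 0.59, so no difference was detectable at this depth. In NPC, SIX3 therefore had 2582 reads and its neighbour SIX2 had 18.

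Promoter windows from RefSeq (GRCh38.p14), which run from 250 bases before to 50 bases after a gene's start, were found for 5 of the 9 genes: SIX2, SIX4, SIX6, EYA3 and EYA4. The windows of SIX6 (chr14:60508896-60509195, plus strand) and SIX2 (chr2:45009403-45009702, minus strand) are shown because they had the longest run in common of any pair, 12 bases, although SIX6 was higher in NPC and SIX2 was not. Capitals mark the shared runs, and both sequences read 5′ to 3′ on the gene's own strand.
SIX6: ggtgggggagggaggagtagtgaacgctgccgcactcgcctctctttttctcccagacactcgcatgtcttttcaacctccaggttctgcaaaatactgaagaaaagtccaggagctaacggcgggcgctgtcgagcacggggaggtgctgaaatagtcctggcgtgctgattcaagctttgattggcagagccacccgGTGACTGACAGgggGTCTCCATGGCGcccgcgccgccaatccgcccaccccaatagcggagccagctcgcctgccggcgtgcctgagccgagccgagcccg
SIX2: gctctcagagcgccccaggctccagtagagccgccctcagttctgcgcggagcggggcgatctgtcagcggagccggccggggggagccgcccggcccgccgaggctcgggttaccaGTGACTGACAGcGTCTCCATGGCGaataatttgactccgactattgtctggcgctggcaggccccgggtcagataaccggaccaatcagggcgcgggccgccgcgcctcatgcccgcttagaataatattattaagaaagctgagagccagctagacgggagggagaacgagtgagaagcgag
The first run, GTGACTGACAG, begins 51 bases before the start in SIX6 and 133 bases before it in SIX2. The second, GTCTCCATGGCG, begins 37 bases before the start in SIX6 and 121 bases before it in SIX2, with 3 bases between the runs in SIX6 and 1 base in SIX2. Of 35116 RefSeq windows, 23 (0.0655%) held the first run and 16 (0.0456%) held the second, and 2, those of SIX2 and SIX6, held both. The runs were looked for after the sequences had been seen, and a shared run is a description of these windows only.

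SIX4 was the only member called lower. It is a homeodomain factor best known from muscle precursors, where it overlaps in function with other SIX-family proteins in mouse. It had 195 reads (7.17 CPM) in NPC and 674 reads (38.8 CPM) in hESC, which is 5.40-fold lower in NPC (4.61 to 6.38). Its level in hESC was the highest of the 5 SIX-family genes, by reads and per kb. Of its 6606 distinct 50-base stretches in GENCODE 29, 168 (2.54%) also occurred in transcripts of other genes on the same strand, the largest such share among the 9 genes. Matches on the opposite strand are not in that share, and over both strands 468 other genes shared such stretches with SIX4. How multi-mapping reads were counted is not known here. The SIX4 window (chr14:60724302-60724601, minus strand) is shown as that of the member called lower. Capitals mark a CCAAT motif.
SIX4: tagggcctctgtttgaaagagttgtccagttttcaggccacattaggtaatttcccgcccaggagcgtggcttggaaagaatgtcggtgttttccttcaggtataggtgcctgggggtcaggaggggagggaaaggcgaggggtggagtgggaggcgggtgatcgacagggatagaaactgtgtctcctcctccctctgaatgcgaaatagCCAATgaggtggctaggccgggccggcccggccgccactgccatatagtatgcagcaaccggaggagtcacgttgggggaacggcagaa
The site TCAGGTTTC, bound by SIX-family proteins in muscle genes, was found in 0 of the 5 member windows and in 0.362% of all windows, searched on both strands. TGATAC, a core bound by SIX-family proteins, was found in 0 of 5 and in 4.4% of all windows. CCAAT, added to the search after the sequences were seen, stood in 4 of 5 windows (SIX2, SIX4, SIX6 and EYA3) and in 34.6% of all windows. TATAAA, added likewise, stood in 0 of 5 and in 11.5%.

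SIX5, a factor studied in lens and in the locus of myotonic dystrophy, differed less between the libraries. It had 526 reads (19.3 CPM) in NPC and 192 reads (11.1 CPM) in hESC, a ratio of 1.75-fold (1.48 to 2.08). The interval lay above no change but its near bound was under 2-fold. DMPK, the kinase gene next to SIX5, had 1393 reads in NPC and 145 in hESC, 6.12-fold higher (5.17 to 7.34). DMWD, on the other side of DMPK, had 1376 reads in NPC and 285 in hESC and was 3.08-fold higher (2.71 to 3.52). Of the 3694 distinct 50-base stretches of SIX5 transcripts in GENCODE 29, 52.1% lie on the opposite strand of an annotated antisense gene, AC074212.1, and 1.22% on that of DM1-AS. Since the strand setting is not given, reads of SIX5 and of these antisense genes cannot be told apart in the stretches that overlap.

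**Figure D2:**
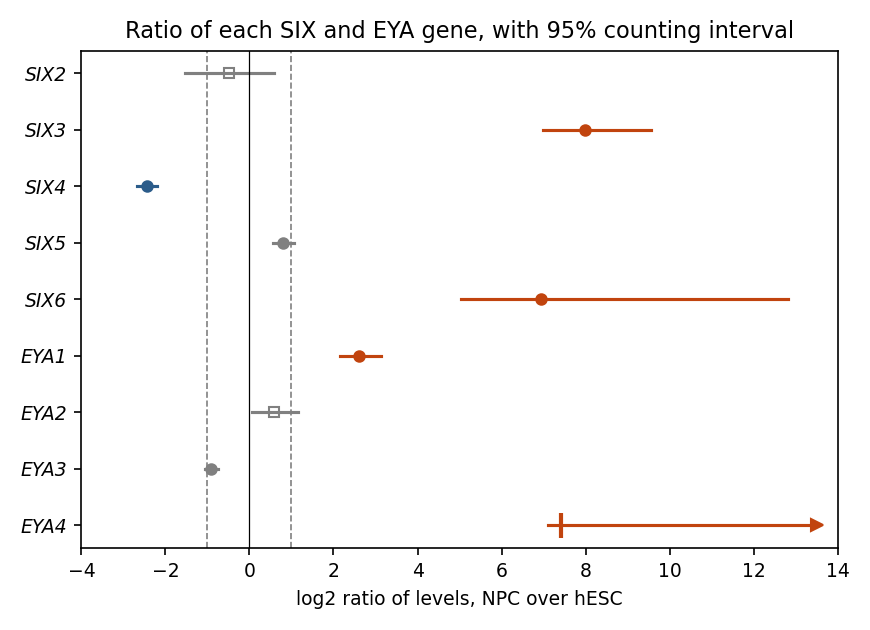
Log2 ratio of each SIX-family and EYA gene, NPC over hESC, with its 95% counting interval, and dashed lines at 2-fold either way. Red marks genes called higher, blue genes called lower, grey the others, and open squares genes below 5 CPM. EYA4, with 0 hESC reads, is drawn as an interval that starts at 138-fold and is open to the right, with a bar at 170.0-fold, its ratio to the floor of 3 reads, and SIX4 was the only gene whose interval lay wholly below the lower 2-fold line.

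Among the EYA genes, EYA4, known from inherited hearing loss and dilated cardiomyopathy, differed most. It had 798 reads (29.3 CPM) in NPC and 0 reads in hESC. Against a floor of 3 hESC reads (0.173 CPM) its NPC level was 170.0-fold, and the lower bound of its 95% counting interval was 138-fold. Transcripts of the antisense gene TARID overlap 0.476% of the 50-base stretches of EYA4, and TARID itself, looked up after its overlap was seen, had 19 reads in NPC and 0 in hESC. The EYA4 window (chr6:133241107-133241406, plus strand) is shown as that of the gene with 0 hESC reads. No capitals are used because none of the 4 motifs was found in it.
EYA4: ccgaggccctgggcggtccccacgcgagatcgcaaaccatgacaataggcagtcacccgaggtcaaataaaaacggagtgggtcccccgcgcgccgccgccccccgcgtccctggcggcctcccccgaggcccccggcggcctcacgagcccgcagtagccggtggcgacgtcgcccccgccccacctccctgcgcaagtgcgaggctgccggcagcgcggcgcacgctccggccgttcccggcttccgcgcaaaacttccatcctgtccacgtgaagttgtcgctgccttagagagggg
Of its bases 71.7% were G or C, against a median of 58.7% over all windows, and it held 39 CpG dinucleotides, against a median of 14. The windows of SIX2, SIX6, EYA3 and SIX4 had 64.0%, 62.3%, 61.7% and 57.7% G or C and 29, 23, 25 and 14 CpG dinucleotides. The EYA4 window was thus the richest of the 5 in both counts.

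EYA1, the gene of branchio-oto-renal syndrome, had 385 reads (14.2 CPM) in NPC and 40 reads (2.30 CPM) in hESC. It was 6.08-fold higher in NPC (4.43 to 8.75). The smallest ratio among the 4 genes called higher was therefore that of EYA1, and its interval overlapped with none of those of SIX3, SIX6 and EYA4. The annotated antisense genes AC015687.1 and AC022858.1 cover 2.62% and 1.63% of the 50-base stretches of EYA1.

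EYA3 is the broadly expressed EYA gene, and it was lower in NPC without passing the 2-fold bound. It had 585 reads (21.5 CPM) in NPC and 701 reads (40.3 CPM) in hESC, 1.88-fold lower (1.68 to 2.10). When the trend of the ratio with transcript length was removed, an alternative chosen after seeing the data, its log2 ratio was −1.21 in place of −0.91 and it was called lower. The intervals of EYA3 and SIX4 did not overlap. EYA2, known from muscle and several tumours, had 99 reads (3.64 CPM) in NPC and 42 reads (2.42 CPM) in hESC, 1.5-fold higher with an interval of 1.04 to 2.22, and was below the filter.

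Shares of the summed reads are given with exact binomial (Clopper-Pearson) intervals. The 5 SIX-family genes together had 3607 reads (132.6 CPM) in NPC and 889 reads (51.1 CPM) in hESC, 2.59-fold higher (2.41 to 2.79). SIX3 supplied 71.6% of them in NPC (70.1 to 73.1) and 0.675% in hESC (0.248 to 1.46). SIX4 supplied 5.41% in NPC (4.69 to 6.20) and 75.8% in hESC (72.9 to 78.6). The places of SIX3 and SIX4 were thus exchanged, while SIX5 held 14.6% in NPC and 21.6% in hESC. SIX6 made up 7.93% in NPC and 0.113% in hESC, and SIX2 0.499% in NPC and 1.80% in hESC. The sum without SIX3 went the other way, with 37.7 CPM in NPC and 50.8 CPM in hESC, 1.35-fold lower (1.23 to 1.48). Most of this difference depends on the scaling, since the library total raises every log2 ratio by 0.36. The counting interval does not cover that shift.

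The 4 EYA genes together had 1867 reads (68.6 CPM) in NPC and 783 reads (45.0 CPM) in hESC, 1.52-fold higher (1.40 to 1.66). EYA4 supplied 42.7% of them in NPC (40.5 to 45.0), and 0 of 783 reads in hESC, which allows a share of up to 0.470%. EYA3 supplied 31.3% in NPC (29.2 to 33.5) and 89.5% in hESC (87.2 to 91.6). EYA1 made up 20.6% in NPC and 5.11% in hESC, and EYA2 5.30% in NPC and 5.36% in hESC. The hESC library thus had mainly reads of 1 EYA gene, and the NPC library reads of 3. Without EYA4 the sum was 39.3 CPM in NPC and 45.0 CPM in hESC, 1.15-fold lower (1.04 to 1.26). This direction depends on the scaling: the library total raises every log2 ratio by 0.36, which is more than this difference.

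**Figure D3:**
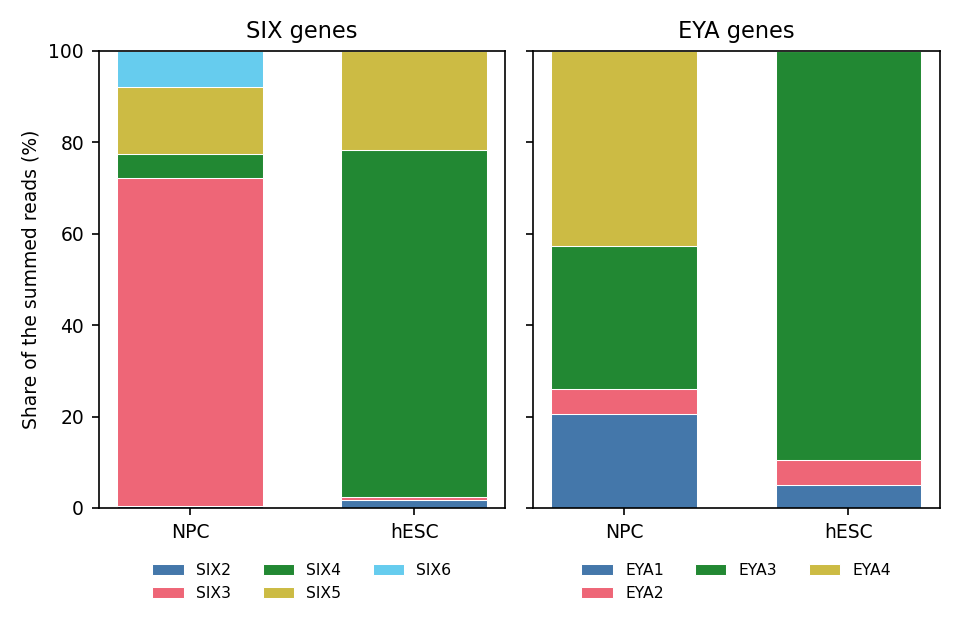
Share of the summed reads of the 5 SIX-family genes (left panel) and of the 4 EYA genes (right panel) held by each gene, in percent, in the NPC and hESC libraries. SIX3 took 71.6% of the SIX-family reads in NPC where SIX4 took 75.8% in hESC, and EYA4 and EYA1 took 42.7% and 20.6% of the EYA reads in NPC where EYA3 took 89.5% in hESC.

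Levels were ordered between genes per kb of the longest transcript in GENCODE 29. In NPC, SIX3 came first at 37.6 CPM per kb, 6.46-fold above SIX5 at 5.83. SIX5 and EYA4 (5.15 CPM per kb) had overlapping intervals, and so had SIX6 (3.77), EYA3 (3.53) and EYA1 (3.27). EYA2 (1.35) and SIX4 (1.14) overlapped too, and SIX2 came last at 0.300. The first place of SIX3 and the last of SIX2 were the same when the median transcript length was used, with which EYA4 came second.

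In hESC, EYA3 (6.63 CPM per kb) and SIX4 (6.17) came first with overlapping intervals, and their order turned round with the median transcript length. SIX5 followed at 3.33, apart from its neighbours on both sides. EYA2 (0.894), EYA1 (0.532) and SIX2 (0.417) came next, each overlapping with the one after it. SIX3 (0.137), SIX6 (0.0206) and EYA4 (0) were last. The 3 genes with the lowest hESC levels were thus among the 4 called higher in NPC, and these ranks use the same counts as the ratios. Per kb, SIX3 held 77.3% of the SIX-family total in NPC and SIX4 61.3% of it in hESC, and EYA4 held 38.7% of the EYA total in NPC and EYA3 82.3% of it in hESC, so the leading genes were the same per kb as by reads.

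The genes most like SIX3, the member with the highest level in NPC, were taken as the nearest 3 by distance between log2(CPM + 0.5) values over the 2 libraries. They were ZIC4 (2400 reads in NPC and 4 in hESC, distance 0.236), SAMD5 (2546 in NPC and 9 in hESC, distance 0.269) and LOC100506076 (1947 in NPC and 6 in hESC, distance 0.405). ZIC4 encodes a zinc finger factor of the ZIC family. With 2 libraries, likeness means only that both levels were alike.

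Genes of proteins that bind SIX-family and EYA factors were followed as a list of 9, of which 8 were measured, 3 called higher, 1 lower and 4 neither. Their median log2 ratio was −0.10, against −0.085 over all measured genes, of which 19.6% were called higher and 19.8% lower. DACH1, a cofactor of the SIX-family and EYA complex, had 1431 reads in NPC and 8 in hESC, 107.6-fold higher (57.9 to 265). Its relative DACH2 was below the filter, with 87 reads in NPC and 40 in hESC. SOBP, a nuclear protein that binds SIX-family factors, had 1598 reads in NPC and 193 in hESC and was 5.28-fold higher (4.55 to 6.18). DACH1 and SOBP were thus called higher while DACH2 had too few reads to be called.

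The TLE genes encode Groucho corepressors, which SIX3 and SIX6 bind. TLE4 had 8332 reads (306.3 CPM) in NPC and 774 reads (44.5 CPM) in hESC, 6.88-fold higher (6.39 to 7.41). The other TLE genes were called neither. TLE1 was 1.88-fold lower in NPC (1.78 to 1.99), TLE3 1.77-fold lower (1.67 to 1.87) and TLE2 1.31-fold lower (1.16 to 1.48), while AES, a short member of the family, was 1.14-fold higher (1.10 to 1.20). TLE4 was thus the only one of these 5 whose interval lay above 2-fold. GMNN encodes geminin, a replication licensing inhibitor that binds Six3 in medaka. It had 1126 reads in NPC and 2487 in hESC and was 3.46-fold lower in NPC (3.22 to 3.71).

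EYA phosphatases remove the phosphate from a tyrosine of histone H2AX, a mark that bears on how cells respond to DNA damage. All 6 genes listed for that pathway were measured, with 1 called higher, 0 lower, 5 neither and a median log2 ratio of 0.41. Among all measured genes, 19.6% were called higher and 19.8% lower. APBB1, an adaptor in this pathway, had 1871 reads in NPC and 481 in hESC, 2.48-fold higher (2.25 to 2.75). H2AFX, the histone gene itself, had 3579 reads in NPC and 1423 in hESC, 1.61-fold higher (1.51 to 1.71). MDC1, which binds H2AX at DNA breaks, had 3694 reads in NPC and 2951 in hESC and was 1.25-fold lower in NPC (1.19 to 1.31).

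Genes of the tissues in which SIX-family and EYA factors are best known were listed by tissue. The counts of each list stand beside 19.6% called higher and 19.8% lower among all measured genes. Of 11 eye field and retinal progenitor genes, 8 were measured and all 8 were called higher, with a median log2 ratio of 4.67. OTX2, a homeobox gene of forebrain and eye, had 5418 reads in NPC and 250 in hESC, 13.8-fold higher (12.2 to 15.8). LHX2, an eye field LIM homeobox gene, had 1943 reads in NPC and 4 in hESC, and RAX, which marks the eye field, had 645 reads in NPC and 2 in hESC. VSX1, a retinal homeobox gene, had 15 reads in NPC and 0 in hESC and was below the filter. HESX1, a gene of rostral neural plate and pituitary, had 32 reads in NPC and 25 in hESC and was below it too.

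Of 11 rostral forebrain genes, 9 were measured and all 9 called higher, with a median log2 ratio of 8.18, or 7.90 with a gene at 0 hESC reads held at its lower bound. WNT8B, a Wnt gene that Six3 represses in the mouse eye field, had 5219 reads in NPC and 11 in hESC, 290.0-fold higher (169 to 608). FEZF2, a zinc finger gene of the forebrain, had 4664 reads in NPC and 12 in hESC, 238.5-fold higher (142 to 481). SIX3 and WNT8B were thus both high in the same bulk library, in which the cells that held each cannot be told apart. In the eye field and rostral forebrain lists, 1 measured gene each reached 5 CPM in hESC and the rest passed the filter through NPC alone. For genes that passed in that way a lower call was out of reach.

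Cranial placodes use SIX-family and EYA factors, and of 12 placode genes 5 were measured, with 4 called higher, 1 lower and a median log2 ratio of 5.63. Only TFAP2C reached 5 CPM in hESC, so the other 4 could not have been called lower. PAX2, an ear and kidney gene that is also active in the neural tube, had 1310 reads in NPC and 2 in hESC. TFAP2C, a gene of surface ectoderm, had 36 reads in NPC and 192 in hESC, 8.25-fold lower in NPC (5.82 to 12.3). The placode genes below the filter included DLX5, with 80 reads in NPC and 0 in hESC, FOXI3, with 9 in NPC and 61 in hESC, and GATA3, with 22 in NPC and 7 in hESC.

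Of 11 nephron progenitor genes, the setting in which SIX2 is best known, 4 were measured, 2 of them higher (PAX2 and UNCX) and 0 lower. The median log2 ratio was 4.70, or 3.41 with UNCX set against the floor of 3 hESC reads. Only SALL1 reached 5 CPM in hESC, so the other 3 could not have been called lower. OSR1 had 13 reads in NPC and 0 in hESC, HOXA11 2 in NPC and 0 in hESC, and HOXD11 1 in NPC and 0 in hESC. CITED1 had 124 reads in NPC and 25 in hESC, GDNF 98 in NPC and 16 in hESC, PAX8 27 in NPC and 1 in hESC, and MEOX1 18 in NPC and 1 in hESC. These 7 genes were all below the filter, as SIX2 was. Of 8 skeletal muscle genes, 1 was measured, through NPC alone: MEF2C, which is also a neuronal gene and was 5.50-fold higher (3.74 to 8.66). The muscle determination genes MYF5 and MYF6 had 0 reads in NPC and 0 in hESC, and MYOD1 had 4 in NPC and 1 in hESC. MYOG had 48 reads in NPC and 6 in hESC, PAX3 82 in NPC and 4 in hESC, PAX7 30 in NPC and 2 in hESC, and DES 38 in NPC and 40 in hESC. All 7 were below the filter.

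Some members are also expressed in mesenchyme. Of 12 craniofacial mesenchyme genes, 5 were measured, with 3 higher, 1 lower, 1 neither and a median log2 ratio of 2.63. Only 2 of the 5 reached 5 CPM in hESC. The 3 called higher passed the filter through NPC alone, so they could not have been called lower. PRRX1 had 521 reads in NPC and 2 in hESC, and PRRX2 29 in NPC and 107 in hESC. Of 10 stroma and fibroblast genes, 9 were measured, 7 higher, 1 lower and 1 neither, and the median log2 ratio was 2.23. Only 5 of the 9 reached 5 CPM in hESC. COL3A1, DCN, PDGFRA and POSTN passed the filter through NPC alone, so they could not have been called lower. The gene called lower was THY1, with 639 reads in NPC and 4635 in hESC, 11.3-fold lower in NPC (10.5 to 12.4). The gene called neither was COL1A1, with 4975 reads in NPC and 4339 in hESC. The summed level of all 10 listed genes was 1797 CPM in NPC and 833.5 CPM in hESC, and 0 of the 10 were at 0 reads in either library. The NPC library came from a co-culture with mouse stromal cells, and whether such cells or mesenchyme contributed reads to the EYA1, EYA2, EYA4 or SIX2 counts was not tested.

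**Figure D4:**
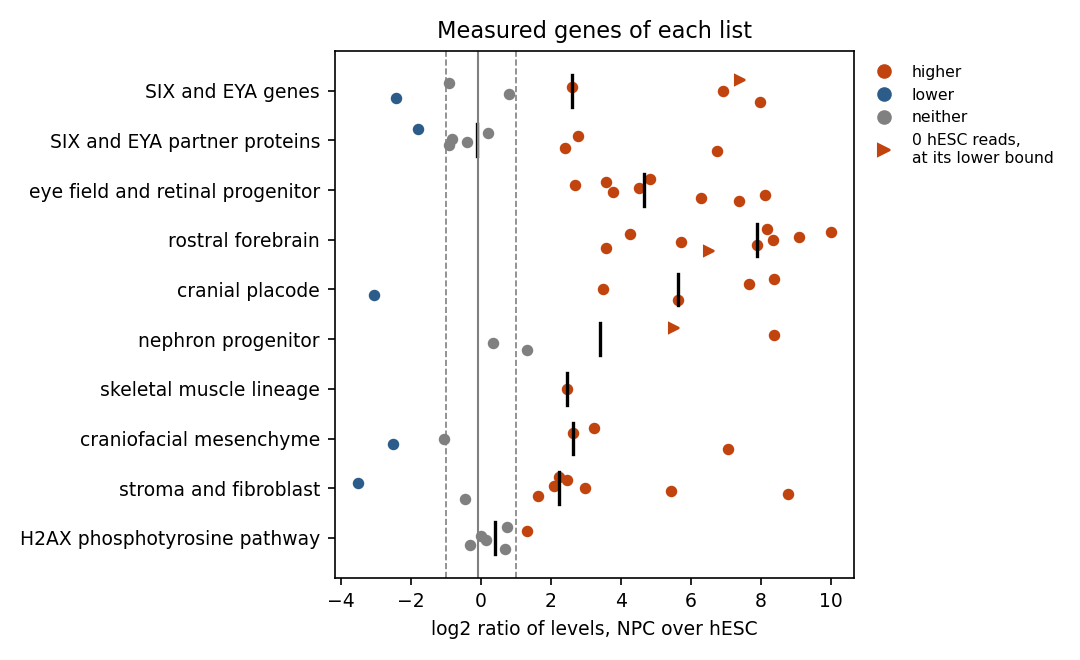
Log2 ratio, NPC over hESC, of the measured genes of each list, 1 point per gene, with a black bar at the list's median, a solid grey line at the median of all measured genes (−0.085) and dashed lines at 2-fold. Triangles are genes with 0 hESC reads, drawn at their ratio to the floor of 3 reads. All 8 eye field and all 9 rostral forebrain genes lay right of the 2-fold line. The 8 measured partner genes lay on both sides of it with a median of −0.10. In hESC, 1 gene each of the eye field and forebrain lists reached 5 CPM, against 7 of the partner genes. A gene measured through NPC alone has no way to a lower call, and nothing is read from this contrast.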

How the data were processed

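The authors deposited, for each library, raw read counts per gene symbol. Per the submitters' processing notes, TopHat, edgeR and the hg19 build were used, with no role stated. Sources used here name no counting tool, strand setting or annotation. Each table held 25737 rows. For 286 symbols on several rows the row with most reads was kept, which set aside 0.107% of the NPC and 0.0878% of the hESC reads.

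TMM factors from edgeR 4.0.16 (R 4.3.3) were 1.13 for NPC and 0.884 for hESC. The point ratio used counts with 0.5 added, and its interval is the exact 95% interval on the NPC share of a gene's reads. A count of 0 was set against a floor of 3 reads. The interval code was tested on simulated counts. Transcript lengths and 50-base matches came from GENCODE 29, and promoter windows from RefSeq, neither of which is the hg19 annotation.

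The text names all 9 members, all partner genes, the neighbouring genes found in the tables, and at most 4 measured genes in full of each other list. The 9 members, the 12 gene lists and the tests were chosen with earlier results of these data known. Alternatives were other scalings, filters and fold bounds. Protein sequences were not used here. A listed gene is not reported here.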

Additional observations from a re-analysis of the deposited data

How the results depend on the processing

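With 1 library per group, leaving out a replicate was not possible and no paired analysis was possible because the groups share no replicates. No ratio of the 9 genes changed sign under any of 7 settings: the library total, DESeq2 1.42.0 size factors, upper-quartile factors, summing the rows of a symbol, removal of mitochondrial and ribosomal protein genes, log2(CPM + 1), and removal of the trend with transcript length. The library total in place of TMM raised every log2 ratio by 0.36 and left 4 members called higher and 1 lower. It moved the log2 ratios of SIX4 (−2.08), SIX5 (1.16) and EYA3 (−0.55) outside their counting intervals. The calls over all measured genes became 27.0% higher and 13.2% lower, against 19.6% and 19.8%. With a filter at 20 CPM, 4 members were measured, 2 of them higher (SIX3 and EYA4) and 1 lower. With the length trend removed, 2 were lower (SIX4 and EYA3). That setting was added after seeing the data. With log2(CPM + 1) the log2 differences of SIX3, SIX6 and EYA4 were 6.16, 3.45 and 4.92, since 1 CPM is far above their hESC levels. Depth limits SIX2, at 18 reads in NPC and 16 in hESC, and the ratios of SIX3, SIX6 and EYA4, which rest on 6, 1 and 0 hESC reads.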
